A study of Drosophila melanogaster with 2 samples.

Results

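The aminoacyl-tRNA synthetase genes of Drosophila melanogaster were examined for binding of ZIPIC, an architectural (insulator) protein that binds DNA through zinc fingers and recruits CP190. Members were the protein-coding genes whose symbol in the Ensembl annotation consists of a capitalised amino acid code followed by RS, with the suffix -m marking the mitochondrial enzyme. The rule found 32 of 13945 protein-coding genes on the 6 chromosome arms. By the suffix alone, 15 were classed as mitochondrial and the 17 without it as cytoplasmic. For GlnRS, GlyRS, HisRS, LysRS and ThrRS no member with the suffix was found for the same amino acid. Whether a gene classed as cytoplasmic also supplies the mitochondrial enzyme was not examined. Chromatin immunoprecipitation followed by sequencing (ChIP-seq) had been done on whole embryos aged 0 to 24 h, both sexes pooled, from a transgenic line with GFP at the C terminus of ZIPIC (CG7928). The labels describe the precipitation as made with an antibody against GFP, although their antibody field names CG7928 itself. The 2 samples, biological replicates 2 and 3, carry the same transgene and form 1 group, so there was no comparison between conditions. Whole embryos mix all cell types and stages of embryogenesis, and a list of peaks cannot tell in which of them a promoter was occupied. No precipitation from untagged embryos was analysed here.

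Aminoacyl-tRNA synthetases join each amino acid to its cognate tRNA, the step that fixes the reading of the genetic code. Most amino acids have separate nuclear genes for the enzyme of the cytosol and for the enzyme imported into mitochondria. Both kinds belong to the housekeeping genes of every cell, and several of the cytoplasmic enzymes of animals assemble with scaffold proteins into a multisynthetase complex. Architectural proteins such as ZIPIC are known to occupy promoters of broadly expressed genes in flies, often between genes that are transcribed away from each other.

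ZIPIC lay at the starts of 7 synthetase genes. These were the cytoplasmic SerRS, ThrRS, AspRS, IleRS, TrpRS and AsnRS and the mitochondrial ArgRS-m, each with the summit of an optimal peak within 500 bp of an annotated start. This was 21.9% of the 32 genes, beside 18.4% of all protein-coding genes, so that the family as a whole was close to the share of all genes. The classes lay on either side of it, with 35.3% of cytoplasmic genes (6 of 17) and 6.67% of mitochondrial genes (1 of 15). The difference between the classes was not tested. Optimal peaks are the authors' final set of 2971, made with an irreproducible discovery rate procedure, which compares how peaks rank in lists. An optimal peak need not have an entry in each replicate, and SerRS, TrpRS and AsnRS had none in replicate 2. The optimal peaks coincide with the 2971 strongest of 30000 entries in the list from the pooled replicates, which also holds weaker background entries.

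The same order of the classes held in the longer lists, although these reach far below the optimal peaks. An entry of the pooled list lay at the start of 16 of 17 cytoplasmic genes (94.1%) and of 6 of 15 mitochondrial genes (40%), beside 50.8% of all protein-coding genes. Of the genes with such an entry, 6 of 16 cytoplasmic genes (37.5%) and 1 of 6 mitochondrial genes (16.7%) were bound by an optimal peak, beside 36.2% of all genes with an entry. Once a cytoplasmic gene had an entry at all, its share with an optimal peak was thus close to that of other genes.

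The replicates differed in how many synthetase genes they listed. Replicate 2 held an entry at 3 of 17 cytoplasmic genes (17.6%) and 1 of 15 mitochondrial genes (6.67%), beside 31.8% of all genes. Replicate 3 held one at all 17 cytoplasmic genes and at 12 of 15 mitochondrial genes (80%), beside 56.5% of all genes. The synthetase genes were therefore under the background share in replicate 2 and above it in replicate 3. Among the 2971 strongest entries of each replicate, replicate 2 gave 3 cytoplasmic genes (17.6%) and ArgRS-m, beside 13.7% of all genes, and replicate 3 gave 8 cytoplasmic genes (47.1%) and PheRS-m, beside 20.1% of all genes. The single mitochondrial gene was a different one in each replicate, while AspRS, IleRS and ThrRS were in both.

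**Figure D1:**
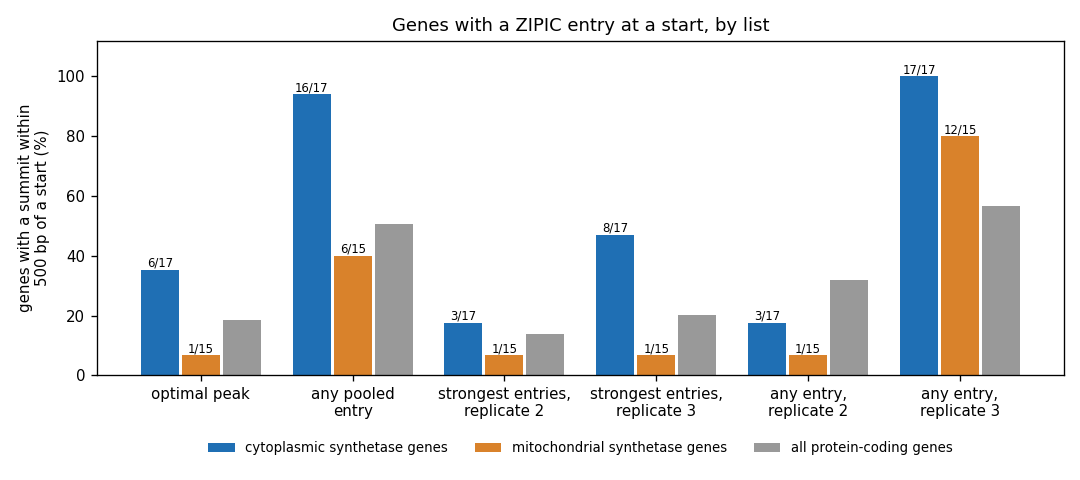
Share of cytoplasmic synthetase genes, mitochondrial synthetase genes and all protein-coding genes (bars, in percent) with a summit within 500 bp of a start, for the optimal peaks, the pooled list and the lists of replicates 2 and 3; labels give genes counted of genes in the class. Cytoplasmic genes stood above mitochondrial genes in every list shown, and the 17 cytoplasmic genes ranged between 3 with an entry in replicate 2 and 17 with an entry in replicate 3.

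The DNA under 5 of the bound summits is printed here, because these are the shared promoter sequences at which the peaks lay, and few of the searched strings are in them. The windows are the 100 bp around each optimal summit, cut to 92 bp at TrpRS to leave out its exon, on the strand of the synthetase gene, from RefSeq's Release 6 genome (dm6). They are chr2L:12103524-12103623 for ThrRS, chr3L:22288472-22288571 for IleRS, chr3R:9266905-9266996 for TrpRS, chr2L:19132083-19132182 for AsnRS and chr3R:7886936-7887035 for ArgRS-m. For contrast the window at msk, the importin gene with the strongest optimal peak (signal 7447), is given last (chr3L:8116043-8116142). Capitals mark matches to a searched string on either strand: TTTATA or TATAAA for a TATA box, CGATA and TATCGATA, and at msk CAGCCCTG, the reverse complement of CAGGGCTG.
ThrRS: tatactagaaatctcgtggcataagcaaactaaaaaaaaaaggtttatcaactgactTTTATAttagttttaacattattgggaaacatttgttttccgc
IleRS: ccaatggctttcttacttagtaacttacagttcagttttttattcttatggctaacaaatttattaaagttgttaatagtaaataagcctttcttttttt
TrpRS: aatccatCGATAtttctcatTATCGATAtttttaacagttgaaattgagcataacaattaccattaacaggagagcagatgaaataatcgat
AsnRS: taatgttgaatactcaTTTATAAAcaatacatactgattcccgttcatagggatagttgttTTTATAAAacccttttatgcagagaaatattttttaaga
ArgRS-m: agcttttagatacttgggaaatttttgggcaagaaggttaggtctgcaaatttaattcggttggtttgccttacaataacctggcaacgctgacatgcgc
msk: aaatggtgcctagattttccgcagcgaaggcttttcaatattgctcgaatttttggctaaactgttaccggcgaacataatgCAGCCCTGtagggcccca

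A set of 8 strings known from fly promoters or from synthetase genes of other animals was searched on both strands in the 100 bp around summits. The string CAGGGCTG, the core of the sequence ZIPIC is known to recognise, was at none of the 7 bound synthetase summits. It was at 7.51% of the 2971 optimal summits, but at 1.34% of the 1562 optimal peaks whose signal lay in the range of the bound synthetase genes. With 1 mismatch allowed it was again at none, beside 8.19% of the peaks in that signal range and 19.7% of optimal peaks. The shorter AGGGNTG, which every CAGGGCTG contains, was likewise at none of the 7, beside 17.0% of optimal peaks and 6.15% of those in the range.

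Other promoter strings were found at few synthetase genes. The BEAF-32 string CGATA was at TrpRS and SerRS, 2 of 7 bound genes, beside 22.9% of optimal peaks. Of the 22 synthetase genes with a pooled entry 4 held it (18.2%), GlnRS and ValRS being the others, beside 26.0% of all genes with an entry. TrpRS also held TATCGATA, the string of the replication-related factor DREF, which always contains CGATA and was at 4.07% of optimal peaks. GGTCACACT, the M1BP string, was at none of the 7, beside 1.41% of optimal peaks, and at ValRS among the genes with a weaker entry. The string TTGCATCA, the amino acid response element through which ATF4 is known to activate synthetase genes in mammals, was at none of the 22 synthetase genes with a pooled entry, beside 0.296% of all 7083 genes with one. The E-box CACGTG was at LeuRS-m alone of those 22, beside 1.0% of all genes with an entry.

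The TATA string TATAAA was the one found at many synthetase genes. It was within 50 bp of the strongest pooled summit of 10 of 22 synthetase genes (45.5%), beside 15.8% of all genes with a pooled entry, and at 3 of the 7 bound genes (SerRS, ThrRS and AsnRS), beside 17.4% of optimal peaks. The 10 were AlaRS, AsnRS, HisRS, LeuRS, MetRS, SerRS and ThrRS with the mitochondrial CysRS-m, IleRS-m and ValRS-m. The searched windows held 15 matches at these 10 genes, of which 9, at 7 genes, were on the strand of the gene. Of the matches on that strand, 0 lay 20 to 40 bp before the synthetase start. The windows followed the summit, and at AlaRS and AsnRS, with summits 101 and 179 bp before the start, they ended before that interval. The count of 0 therefore cannot show that no match lies there. Whether any match works as a TATA box was not tested. The windows at synthetase genes were rich in A and T, with a GC content of 13 to 47% and a median of 28.5% over 22 genes, beside a median of 39% over 7083 genes. Of the 11 synthetase windows at or below 28.5% GC 9 held the string, beside 41.7% of 1159 genes with windows as low, and of the 11 above it 1 did, beside 10.8% of 5924 genes. The string is itself made of A and T, and the part of base composition in its share was not tested.

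SerRS had the strongest peak of the family. The seryl-tRNA synthetase gene (FBgn0031497, chr2L:3035493-3037403, minus strand) had a peak at chr2L:3037231-3037640 with a signal value of 292.4, place 996 of the 2971 optimal peaks. The signal value is the authors' score of an entry, on a scale that is not given, and is used here only to rank entries within a list. Replicate 2 had no entry at SerRS, and in replicate 3 the entry had a signal of 124.5 and place 1210 of 30000. The summit lay 33 bp before the SerRS start and inside the 5′ UTR of CG17260, whose start on the other strand is 8 bp from that of SerRS and 25 bp from the summit.

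ThrRS, which makes threonyl-tRNA, had entries in both replicates. Its peak (chr2L:12103369-12103778, before the plus-strand gene at chr2L:12103751-12107170) had a signal of 286.5 and place 1023 among the optimal peaks. Replicate 2 gave a signal of 130.0 at place 1084 and replicate 3 a signal of 148.0 at place 974, so that its place was nearly the same in all 3 lists. The summit was in intergenic DNA 177 bp before ThrRS and 289 bp from the start of Patsas on the other strand, with the 2 starts 466 bp apart.

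IleRS, an isoleucyl enzyme of the multisynthetase complex in vertebrates, had a peak of signal 216.8 at place 1421 (chr3L:22288317-22288726, gene at chr3L:22288665-22292810, plus strand). Its entries were stronger in replicate 2 (128.3, place 1096) than in replicate 3 (84.97, place 2264) by place in the list. The summit lay 143 bp before IleRS and 327 bp from Hem, which encodes a subunit of the WAVE regulator of actin, and the 2 starts were 470 bp apart.

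ArgRS-m was the only mitochondrial enzyme gene with an optimal peak. The peak (chr3R:7886781-7887190, gene at chr3R:7887045-7890150, plus strand) had a signal of 156.8 and place 2167. Replicate 2 gave 74.06 at place 2035 and replicate 3 gave 64.22 at place 3613, outside its 2971 strongest entries. The summit lay 59 bp before ArgRS-m and 253 bp from CG17816, in the 312 bp between the starts.

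TrpRS and AsnRS had the weakest optimal peaks of the cytoplasmic genes, and neither had an entry in replicate 2. At TrpRS (chr3R:9265027-9266904, minus strand) the peak at chr3R:9266742-9267151 had a signal of 152.2 and place 2264, with 132.4 and place 1137 in replicate 3. Its summit lay 43 bp before TrpRS and 72 bp from Vps16A, a subunit of the vesicle-tethering complexes of the lysosomal pathway, and the starts are 115 bp apart. At AsnRS (chr2L:19129469-19131954, minus strand) the peak at chr2L:19131928-19132337 had a signal of 140.0 and place 2557, with 67.64 and place 3321 in replicate 3. Its summit was 179 bp before AsnRS and 190 bp from DCTN6-p27, a dynactin subunit gene, almost midway in the 369 bp between the starts. Both peaks therefore rest on replicate 3 and the pooled list.

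AspRS differed from the others in where its peak lay. The gene (FBgn0002069, chr2R:12877004-12883168, plus strand) has 3 annotated starts, and the peak at chr2R:12879852-12880261 had its summit 227 bp before an internal one, in an intron of the longest transcript. Its signal was 232.4 at place 1298, with 128.3 at place 1097 in replicate 2 and 91.9 at place 1968 in replicate 3. The summit was nearer to a start of Nmda1 on the other strand (173 bp), 54 bp from the internal AspRS start, and lay inside the Nmda1 gene. Another start on the other strand, that of Lfg, lay 38 bp from an AspRS start. The pooled list also held an entry, not an optimal peak, with its summit 16 bp from one of the 3 AspRS starts. A peak shared by starts of several genes cannot be assigned to one of them.

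**Figure D2:**
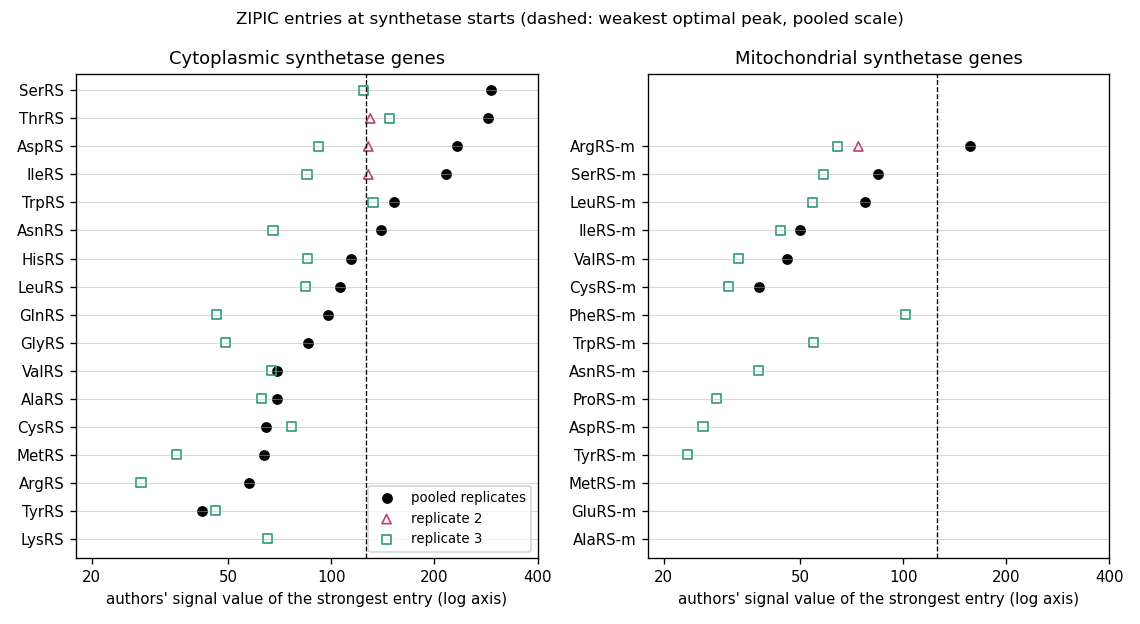
Signal value of the strongest entry at each of 17 cytoplasmic (left) and 15 mitochondrial (right) synthetase genes (log axis) in the pooled list (circles), replicate 2 (triangles) and replicate 3 (squares); the dashed line is the weakest optimal peak, 126.0 on the pooled scale, and a missing symbol means no entry. Replicate 2 triangles appear at ThrRS, AspRS, IleRS and ArgRS-m alone, while replicate 3 squares are missing at AlaRS-m, GluRS-m and MetRS-m.

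The bound synthetase peaks were of middling and low strength. Their signals ran between 140.0 and 292.4 with a median of 216.8 (n = 7), beside a median of 249.0 over all 2561 bound genes, whose signals reached 7447. By their strongest peak they stood at places 1111 (SerRS) to 2301 (AsnRS) of the 2561 bound genes. Of all 22 synthetase genes with a pooled entry the median signal was 85.09, beside 90.49 over 7083 genes, with medians of 101.9 for 16 cytoplasmic and 63.87 for 6 mitochondrial genes. In replicate 3 the medians were 67.64 for 17 cytoplasmic and 40.88 for 12 mitochondrial genes, beside 54.82 over 7880 genes. The ranges of the classes overlapped in both lists.

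**Figure D3:**
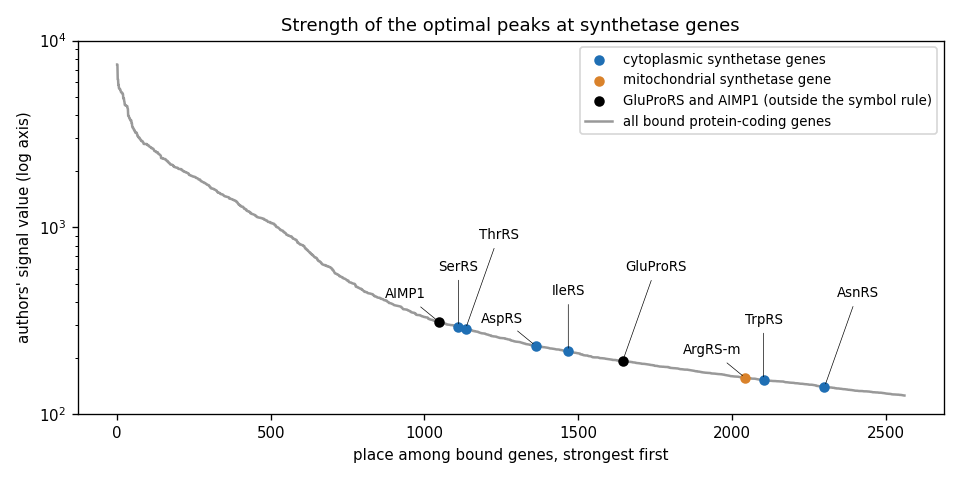
Signal value (log axis) of the strongest optimal peak of each bound gene against its place among 2561 bound protein-coding genes, strongest first; the grey line is all bound genes, blue points are cytoplasmic synthetase genes, the orange point is ArgRS-m and black points are GluProRS and AIMP1. The 7 synthetase genes lie between place 1111 (SerRS) and place 2301 (AsnRS).

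Not every bound gene was found in both replicates. A peak counted as found when an entry among the 2971 strongest of a replicate held its summit. That was so in both replicates for AspRS, IleRS and ThrRS, 3 of 7 (42.9%), beside 59.2% of all bound genes and 40.9% of the 1192 bound genes whose signal lay between those of AsnRS and SerRS. Any entry in replicate 2 was present at 4 of 7 (57.1%), beside 72.9% of all bound genes and 60% in that signal range, and in replicate 3 at all 7, beside 99.6% of bound genes. At equal signal the synthetase genes were therefore close to other bound genes in this respect.

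All 7 bound genes stood head to head with a neighbour. Each had the start of another protein-coding gene, on the other strand, within 500 bp of the summit. Of all bound genes 61% had another protein-coding start that near, but this share counts starts on either strand. The synthetase start was the nearest one to the summit at 5 of 7 (71.4%), beside 69.6% of all bound genes, the exceptions being AspRS and SerRS. Each of the 7 summits lay before the synthetase start, by 33 to 227 bp with a median of 143 bp. At ThrRS, IleRS, ArgRS-m, TrpRS and AsnRS the summit lay between the 2 starts. The shares of all bound genes with a summit before the start or between 2 starts were not counted.

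**Figure D4:**
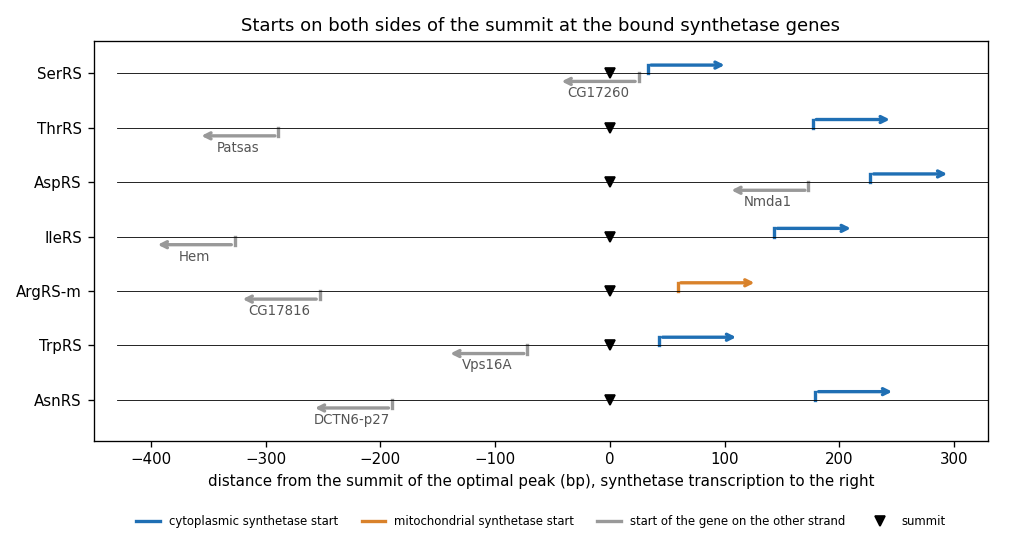
Annotated starts around the optimal summit (triangle, distance 0) of the 7 bound synthetase genes, with distance in bp and each synthetase transcribed to the right; coloured arrows are synthetase starts and grey arrows the nearest start on the other strand. At 5 genes the summit lies between the starts, while at SerRS and AspRS both starts lie on the same side of it.

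The head-to-head arrangement was common among synthetase genes whether or not ZIPIC was there. With a divergent partner defined as the start of another protein-coding gene on the other strand up to 1000 bp before a start, 15 of 17 cytoplasmic genes (88.2%) and 7 of 15 mitochondrial genes (46.7%) had one, 22 of 32 in all (68.8%), beside 36.2% of all protein-coding genes. The paired starts were 8 to 561 bp apart in cytoplasmic genes (median 295 bp) and 35 to 312 bp in mitochondrial genes (median 166 bp), beside a median of 298 bp in all genes. AlaRS and CysRS were the cytoplasmic genes without a partner.

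Read within this arrangement, the family was close to the background. Of synthetase genes with a divergent partner 7 of 22 were bound by an optimal peak (31.8%), beside 33.7% of all 5052 genes with one. The share was 40% for cytoplasmic genes (6 of 15) and 14.3% for mitochondrial genes (1 of 7). Of genes without a partner 0 of 2 cytoplasmic and 0 of 8 mitochondrial genes were bound, beside 9.64% of all 8893 such genes. The share of cytoplasmic genes in excess of all genes thus stood beside an excess of head-to-head promoters among them, and with 17 genes the part of each was not tested.

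With weaker entries counted together with the optimal peaks, the classes also stood apart within the arrangement. A pooled entry lay at 14 of 15 cytoplasmic genes with a partner (93.3%) and at 3 of 7 mitochondrial ones (42.9%), beside 70.1% of all genes with a partner. Without a partner it lay at both cytoplasmic genes and at 3 of 8 mitochondrial genes (37.5%), beside 39.9% of all such genes. In replicate 3 the classes were closer: an entry lay at 15 of 15 cytoplasmic and 6 of 7 mitochondrial genes with a partner (85.7%), beside 81% of all such genes, and at 2 of 2 cytoplasmic and 6 of 8 mitochondrial genes without one (75%), beside 42.6%.

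**Figure D5:**
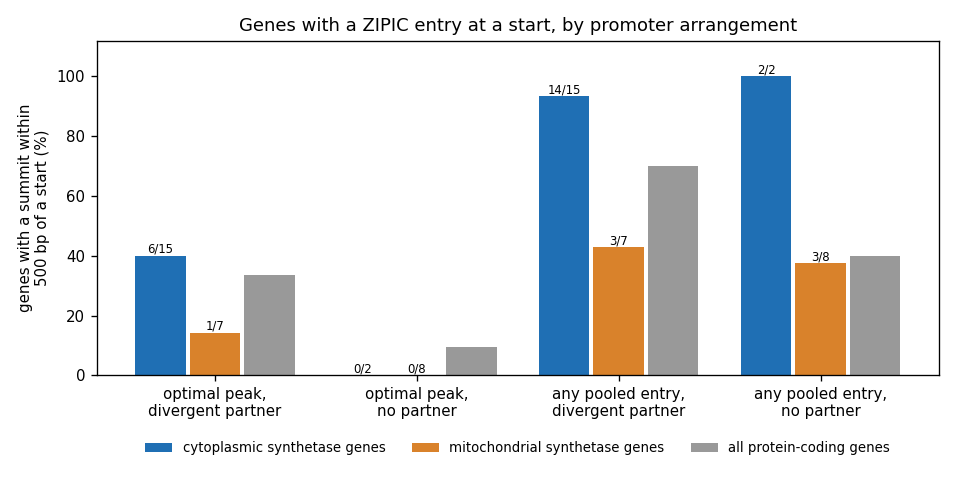
Share of cytoplasmic synthetase genes, mitochondrial synthetase genes and all protein-coding genes (bars, in percent) with an optimal peak or any pooled entry within 500 bp of a start, split by whether a divergent partner was annotated; labels give genes counted of genes in the class. No synthetase gene without a partner was bound by an optimal peak, and among genes with a partner 6 of 15 cytoplasmic and 1 of 7 mitochondrial genes were.

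Among the 25 synthetase genes without an optimal peak, 15 had a weaker pooled entry, with signals between 37.95 and 114.4 and a median of 69.56. HisRS, the histidyl enzyme gene, came closest to the weakest optimal peak (126.0) with a signal of 114.4 at place 3415, and AsnRS, at 140.0, was the bound gene nearest to that limit. HisRS shares its exact start with a transcript of Bx, and its entry in replicate 3 (85.39, place 2253) was among the strongest there. LeuRS had 106.0 at place 3798, with 84.06 and place 2310 in replicate 3, 88 bp before its start and 128 bp from CG17593. GlnRS followed with 97.91 at place 4287 and 46.13 at place 6430 in replicate 3, between its start and that of RIOK2, a kinase of ribosome maturation. GlyRS had 85.45 at place 5243, with 49.15 and place 5760 in replicate 3. SerRS-m, the strongest of the mitochondrial genes without an optimal peak, had 84.73 at place 5303, with 58.51 and place 4259 in replicate 3, in an intron of Nagk 425 bp before its start. None of these 5 had an entry in replicate 2.

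The other 10 with a weaker entry were LeuRS-m (77.58), ValRS (69.70), AlaRS (69.56), CysRS (64.56), MetRS (63.68), ArgRS (57.71), IleRS-m (50.16), ValRS-m (45.92), TyrRS (41.84) and CysRS-m (37.95), by pooled signal. CysRS stood apart in replicate 3, where its entry of 76.49 was at place 2697, among the strongest. The entry counted for ValRS lay 497 bp from its start and 16 bp from that of Kdm4B, a histone demethylase gene, at the edge of the window. LeuRS-m had an optimal peak of signal 325.7 at 827 bp, beyond the window.

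No pooled entry lay at LysRS, the sole cytoplasmic gene without one, or at AlaRS-m, AsnRS-m, AspRS-m, GluRS-m, MetRS-m, PheRS-m, ProRS-m, TrpRS-m and TyrRS-m. The nearest pooled summit was 1308 to 5377 bp away, with a median of 2793 bp. In replicate 3 alone, PheRS-m had an entry of 101.5 at place 1661, stronger there than AspRS, and LysRS had one of 65.29 at place 3535. TrpRS-m (54.66), AsnRS-m (37.76), ProRS-m (28.59), AspRS-m (26.07) and TyrRS-m (23.52) had weaker ones in replicate 3. AlaRS-m, GluRS-m and MetRS-m had no entry within 500 bp of a start in any of the 4 lists.

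For 12 amino acids there is a cytoplasmic and a mitochondrial member, which allowed enzymes with the same reaction to be set side by side. In the pooled list the cytoplasmic gene had the stronger entry, or the sole one, in 11 of 12 pairs. Seryl synthetases had 292.4 for SerRS and 84.73 for SerRS-m, isoleucyl synthetases 216.8 for IleRS and 50.16 for IleRS-m, and leucyl synthetases 106.0 for LeuRS and 77.58 for LeuRS-m. The arginyl pair was the reverse, with 57.71 for ArgRS and 156.8 for ArgRS-m. Replicate 3 gave the same 11 to 1, again with arginine as the exception (27.85 for ArgRS and 64.22 for ArgRS-m). In 9 pairs neither gene had an entry in replicate 2, while there AspRS, IleRS and ArgRS-m had the sole entry of their pair.

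The bound genes came from both structural classes of synthetases. Class I enzymes, with the Rossmann nucleotide-binding fold, were bound at 3 of 18 genes (16.7%), namely IleRS, TrpRS and ArgRS-m. Class II enzymes, built on an antiparallel sheet, were bound at 4 of 14 (28.6%), namely AsnRS, AspRS, SerRS and ThrRS, and these were 4 of the 8 cytoplasmic genes of the class against 2 of the 9 of class I. The share of all protein-coding genes was 18.4%, and the difference between the structural classes was not tested. Of the 7 members whose enzymes sit in the multisynthetase complex, as known from vertebrates, 2 were bound (28.6%, beside 18.4% of all protein-coding genes), AspRS and IleRS.

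Related genes of the pathway whose symbols the rule does not match were read separately, and 2 of 7 were bound (28.6%, beside 18.4% of all protein-coding genes). GluProRS, the fused glutamyl-prolyl enzyme of the same complex, had a peak at chr3R:23958288-23958697 of signal 193.0 and place 1636, with 77.2 at place 1928 in replicate 2 and 121.9 at place 1250 in replicate 3. It resembled the members in lying 102 bp before its start and 158 bp from the divergent start of AP-1sigma, a clathrin adaptor gene. AIMP1, a scaffold of the complex, had a stronger peak than any bound synthetase gene (312.6, place 925 of 2971), with 181.0 at place 796 in replicate 3 and no entry in replicate 2. It was narrow, 148 bp beside 410 bp at each bound member, lay 9 bp from the start of the deadenylase gene PAN2 and 73 bp before AIMP1, and held CAGGGCTG, which no bound member did. AIMP3 (107.4, place 3720), alpha-PheRS (81.32), Slimp (79.38) and AIMP2 (36.41) had weaker pooled entries, and beta-PheRS had one in replicate 3 alone (66.53).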

How the data were processed

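The deposited data are peak lists from 2 ChIP-seq samples of ZIPIC-GFP embryos. Per the deposited file descriptions, the authors made a candidate list for each replicate and for the pooled replicates against 1 control alignment, and optimal peaks by an irreproducible discovery rate procedure. Chromatin was sonicated to a size range of 200 to 800, per the labels, which give no unit. For aligner and peak caller, names and versions were not given in the sources used here. In these lists the deposited signal value is a score whose scale is not given, and summits are deposited offsets in bases. The lists hold no read counts, so depth was unknown. Lists on build dm3 were not used here.

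Summits of the 4 dm6 lists were set against all annotated starts of protein-coding genes (Ensembl release 115, BDGP 6.54; Python 3.11.15, pandas 2.3.3, numpy 2.4.6), and the strongest entry within 500 bp was taken. The counting steps were checked on simulated data. Every member is named, and values in each list are given for bound members and the 5 strongest others. Members, groups, related genes and strings were chosen with earlier results of these data known. Counts were set beside those of all protein-coding genes and no test was made, since members are not replicates. The labels call the samples biological replicates.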

Additional observations from a re-analysis of the deposited data

How the results depend on the processing

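The count of 7 bound synthetase genes (6 cytoplasmic, 1 mitochondrial) was the same with summits within 250 bp, where 15.5% of all protein-coding genes were bound. It was 6 with the end of the gene record as the sole start, which loses AspRS (18.8%, all genes 16.8%), and 5 with genes counted where their own start was nearest (15.6%, all genes 13.3%). Within 1000 bp 2 mitochondrial genes were bound, LeuRS-m joining ArgRS-m (25% of the 32 synthetase genes in all, all genes 20.4%). With the stronger part of the optimal peaks 4 genes were bound, all cytoplasmic, and 0 mitochondrial (12.5% of the 32, all genes 10.9%). Each replicate was also left out in turn, with as many of the other's strongest entries taken. Without replicate 3, 4 genes were bound (12.5% of the 32, all genes 13.7%), of which 3 were cytoplasmic (17.6% of that class). Without replicate 2, 9 genes were bound (28.1%, all genes 20.1%), of which 8 were cytoplasmic (47.1%). In either case 1 mitochondrial gene was bound (6.67%). The median signal of the strongest entries was then 58.51 to 128.3 on those replicates' own scales. Among mitochondrial genes with a pooled entry, a background chosen after seeing the data, 16.7% were bound, beside 36.2% of all genes with one. Adding GluProRS, alpha-PheRS and beta-PheRS, also chosen later, gave 8 bound genes of 35 (22.9%, all genes 18.4%). Of the 7 bound genes 4 had another protein-coding start within 250 bp of the summit. The share of all bound genes with one that near was not counted. The cause of these changes was not tested beyond what each setting adds or removes. Narrower or wider windows (50 and 200 bp) gave CGATA at 1 and 3 bound genes, TATCGATA at 0 and 1, and TATAAA at 3 and 4. Shares over all optimal peaks were not counted at these widths, so these counts have no background beside them. No paired analysis was possible because the 2 replicates form 1 group and no groups were compared.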
